A study of Mus musculus with 2 samples.

Results

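Peptidases on the cell surface and in the secretory pathway were followed across the cells of mouse periosteum, the fibrous layer that covers bone. The set held 8 genes, chosen by symbol: Anpep, Dpp4, Enpep, Mme, Fap, Cpe, Cpz and Cpxm1, out of 32288 features in the deposited matrices. All 8 had UMIs (unique molecular identifiers, 1 per counted RNA molecule) and all 8 passed the filter on low counts. The rule names symbols and uses no measured value, but the list was drawn up with earlier results of these data known.

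Peptidases that sit in the plasma membrane with the active site outside the cell trim hormones, chemokines and matrix fragments. Anpep encodes CD13, an aminopeptidase that is a classical myeloid surface antigen and is also found on fibroblasts and pericytes. Dpp4 (CD26) and Fap are related serine peptidases that cut after proline, Enpep is an aminopeptidase that removes acidic residues from peptides such as angiotensin, and Mme (CD10, neprilysin) cleaves short peptides internally. Cpe removes basic residues from prohormones in secretory granules, Cpz is a secreted carboxypeptidase with a domain that resembles the Wnt receptor Frizzled, and Cpxm1 belongs to the same family but lacks residues needed for catalysis.

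Both samples were single-cell RNA-Seq libraries of periosteal cells from long bones of wild-type C57BL6 mice at 4 weeks of age, sorted for absence of CD45, CD31 and Ter119 and of the dead-cell dye DAPI. No transgene or treatment was labelled, there was 1 condition, and the number of mice behind each library was not given in the sources used here. They are called library 1 and library 2. Values are UMIs per 1000000 UMIs of a cell class in a library (CPM), with 95% Poisson intervals in brackets; these intervals and all limits from 0 counts cover counting error only.

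After filtering (at least 500 genes, at least 500 UMIs, at most 10% mitochondrial UMIs), library 1 kept 6276 cells with a median of 8164 UMIs and library 2 kept 2893 cells with a median of 6279. Only 7 kept barcodes were shared. Against the sort labels, blood cells made up 92.9% of kept cells in library 1 and 61.1% in library 2. Cells were clustered without the 8 genes and their relatives, and clusters were named from marker lists; 17 classes had at least 10 cells in each library. Cells of clusters whose best marker list was not a blood list were clustered again, and stromal classes come from this second round. P-SSC/fibroblast-like cells, named from periosteal skeletal stem cell (P-SSC) and fibroblast markers, numbered 20 in library 1 and 286 in library 2. In the first round, over all cells, the cluster of this name held 23 and 193 cells. Lepr+ stromal-like cells numbered 114 and 276 in the first round and 83 and 38 in the second. The Lepr+ stromal-like class differed between libraries: Adipoq stood at 2517 and 319 CPM, Cxcl12 at 14080 and 2197 CPM, and Col1a1 at 530.2 and 10362 CPM in libraries 1 and 2. Summed CPM of 9 blood genes (Ptprc and hemoglobin, granulocyte and B-cell genes) was higher in stromal classes of library 1, at 16335 against 2931 in P-SSC/fibroblast-like and 6671 against 201 in osteoblast-like cells. The granulocyte genes S100a8, S100a9, Lyz2 and Camp were among the 10 leading genes of the larger osteoblast-like cluster. The part of these differences in the values of the 8 genes and their relatives was not tested.

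The deposited matrices also list the reporter sequences EGFP and tdTomato, and both had UMIs although the mice are labelled wild type. EGFP had 0 UMIs in library 1 and 6837 UMIs in 170 of the 2893 kept cells of library 2, nearly all stromal. tdTomato had 1482 UMIs in 1027 cells of library 1 and 4627 UMIs in 846 cells of library 2, in stromal and blood classes. The genotype of the cells is therefore given here only as labelled. Without the cells that held EGFP, library 2 levels were 160 CPM for Anpep in P-SSC/fibroblast-like cells (158 with all cells), 62.4 CPM for Dpp4 (63.2), 250 CPM for Mme in Lepr+ stromal-like cells (248) and 476 CPM for Cpz in osteoblast-like cells (467). Cpxm1 in Lepr+ stromal-like cells was 228 CPM without them and 267 CPM with them.

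Promoter sequences of Anpep, Dpp4 and Enpep are given because these genes divided stroma and blood in different ways (Anpep was stromal, while Dpp4 and Enpep were shared with B-lineage cells). The sequences are RefSeq promoters on build GRCm38.p6, 300 bases from 250 before to 50 after the annotated start, written 5′ to 3′ on the minus strand, where all 3 genes lie: chr7:79848161-79848460 for Anpep, chr2:62412182-62412481 for Dpp4 and chr3:129332700-129332999 for Enpep. The Anpep sequence belongs to a start inside the annotated gene, whose 5′ end in GENCODE M21 is at 79861059. The sequence at that end is not shown. Capitals mark matches on either strand to short motifs, none of which contains another. For the TATA box, which positions transcription starts at some promoters, the letters searched were TATAAA. For RUNX factors, which act in bone and blood development, the core searched was TGTGGT. For PU.1, a factor of myeloid and B-cell development, the core searched was GAGGAA.
Anpep: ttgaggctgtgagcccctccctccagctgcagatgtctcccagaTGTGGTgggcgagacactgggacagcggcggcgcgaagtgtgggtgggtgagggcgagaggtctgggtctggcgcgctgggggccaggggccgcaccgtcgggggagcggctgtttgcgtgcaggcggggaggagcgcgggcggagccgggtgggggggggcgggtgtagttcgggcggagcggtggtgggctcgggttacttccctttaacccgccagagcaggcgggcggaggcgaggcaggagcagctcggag
Dpp4: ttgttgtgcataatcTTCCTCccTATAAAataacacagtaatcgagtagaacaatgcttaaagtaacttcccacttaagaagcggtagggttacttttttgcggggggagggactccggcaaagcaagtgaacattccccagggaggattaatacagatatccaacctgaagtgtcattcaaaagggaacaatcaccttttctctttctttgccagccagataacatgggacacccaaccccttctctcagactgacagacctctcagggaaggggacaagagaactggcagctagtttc
Enpep: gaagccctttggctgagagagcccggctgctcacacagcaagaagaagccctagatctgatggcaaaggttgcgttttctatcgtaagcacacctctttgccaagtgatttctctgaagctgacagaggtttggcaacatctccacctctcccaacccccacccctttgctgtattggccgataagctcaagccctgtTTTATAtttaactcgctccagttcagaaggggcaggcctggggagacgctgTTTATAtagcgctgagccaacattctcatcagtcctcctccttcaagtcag
Dpp4 held 1 match each to the TATA and PU.1 letters, Enpep held 2 matches to the TATA letters and Anpep held 1 match to the RUNX letters. Of 32851 RefSeq promoters of this length, 13.6% held the TATA letters, 16.8% the RUNX letters and 28.3% the PU.1 letters. Matches were counted anywhere in the 300 bases, and their distance to the start was not assessed. The Dpp4 match to the TATA letters lies near the 5′ end of its sequence, away from the start. Both Enpep matches read TTTATA, so their TATA letters lie on the strand opposite to the one shown. The second of them lies at the annotated start. A match is a description of these letters, and promoter use was not measured by the 3′ assay.

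The 8 genes fell into distinct patterns over the classes. Anpep UMIs came mainly from P-SSC/fibroblast-like cells, with 63.3% of its UMIs in library 1 and 80.6% in library 2. B-lineage cells held 83.5% and 69.6% of Dpp4 UMIs and 80.8% and 54.1% of Enpep UMIs. Osteoblast-like cells held 94.1% and 82.0% of Cpz UMIs. These shares also reflect how many cells of each class were captured, so class levels are given in what follows.

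**Figure D1:**
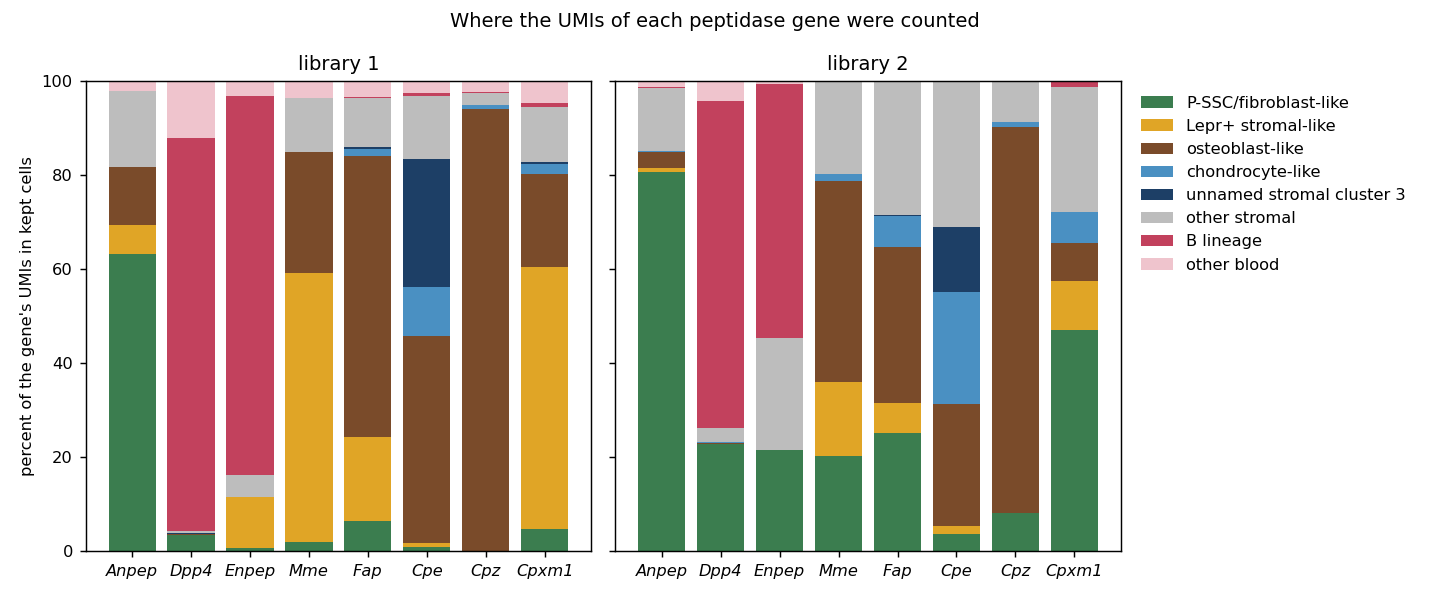
Share of each gene's UMIs (percent, vertical axis) counted in groups of cell classes, stacked to 100, for library 1 (left) and library 2 (right). Red marks B-lineage cells, which hold most Dpp4 and Enpep UMIs, green marks P-SSC/fibroblast-like cells, which hold most Anpep UMIs, and brown marks osteoblast-like cells, which hold most Cpz UMIs.

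UMI sums per class and library were compared in all 136 pairs of the 17 classes (edgeR quasi-likelihood test, Benjamini-Hochberg adjustment over 13812 genes within a pair, threshold 0.05). The 8 genes were called in 489 of 1088 tests, against 30.1% of all gene-by-pair tests. Without the Lepr+ stromal-like class the count was 407 over 120 pairs, for which the share over all genes was not computed. The libraries may share animals or a preparation, so the p-values measure the spread between these libraries.

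**Figure D2:**
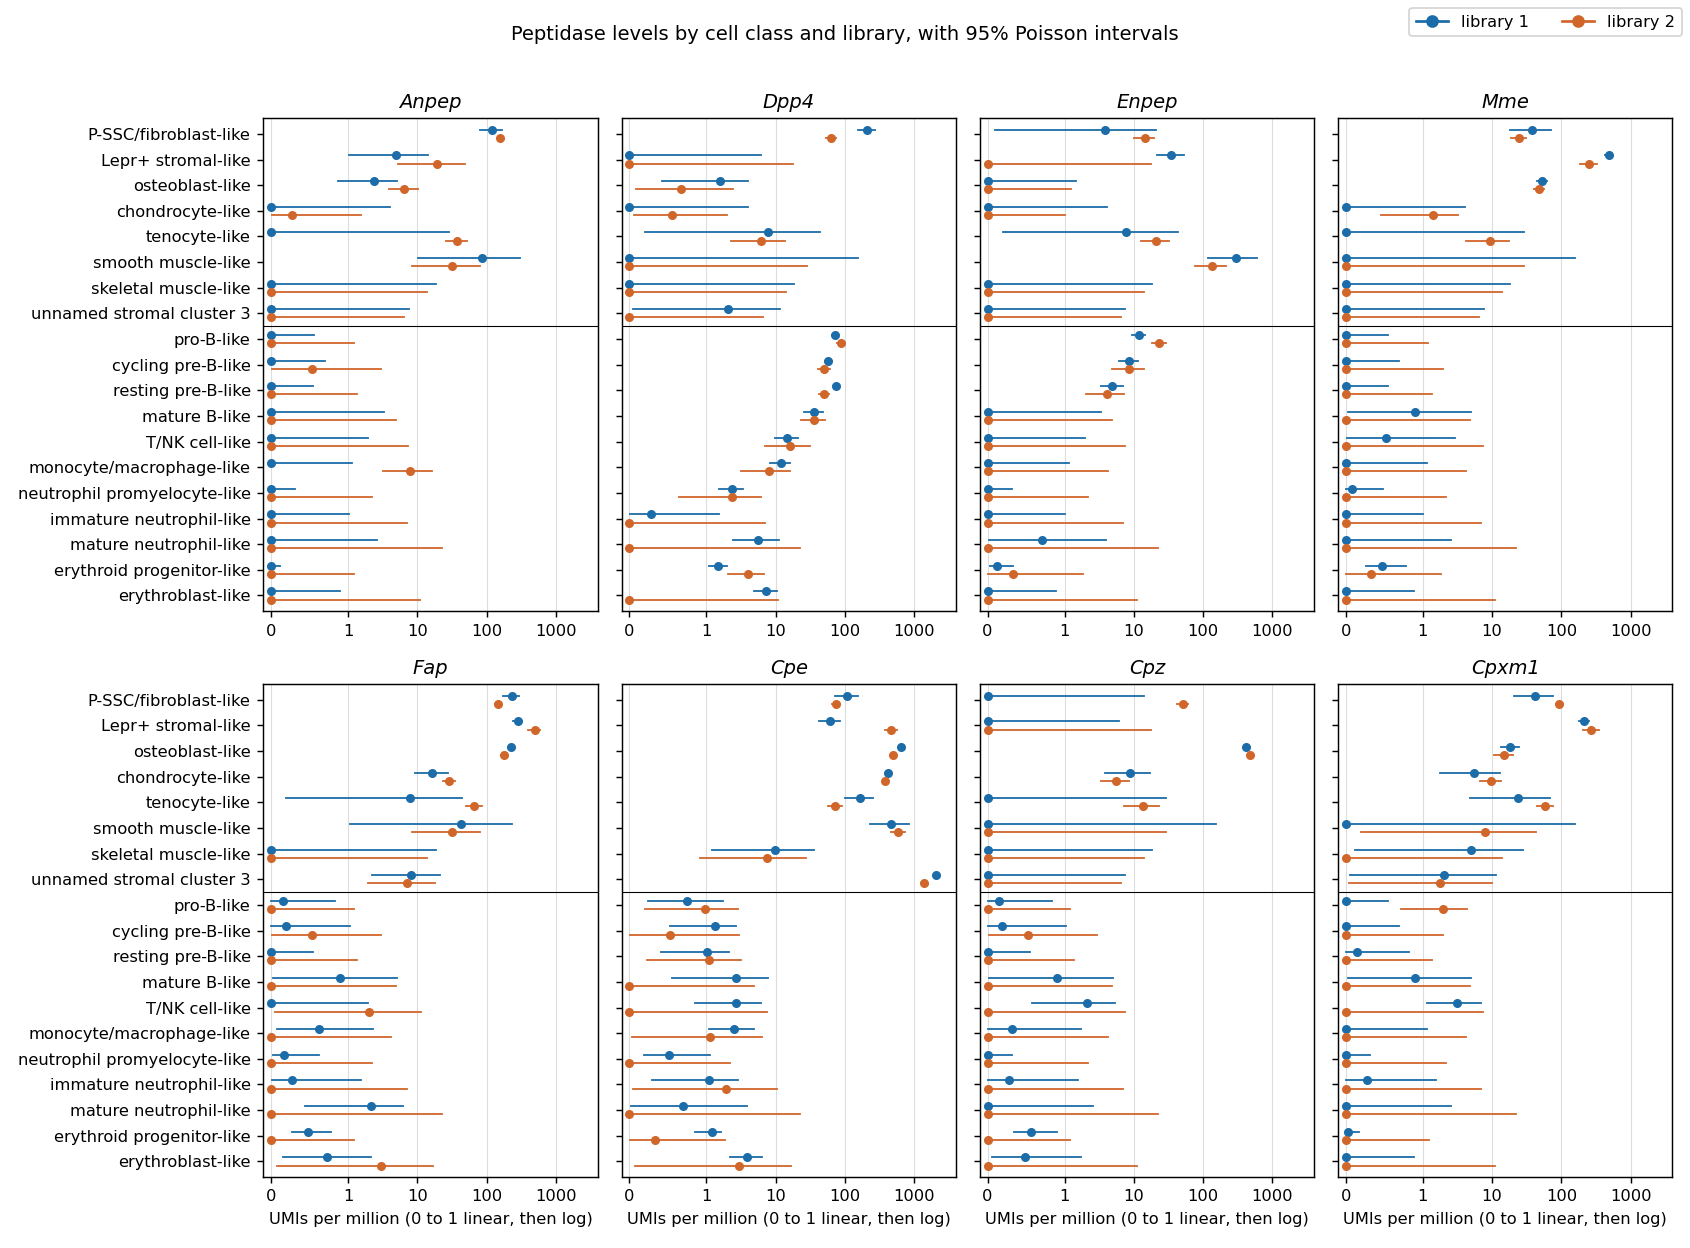
Level of each gene (CPM, horizontal axis, linear from 0 to 1 and logarithmic above) in stromal classes (above the line) and blood classes (below it). Blue is library 1, orange is library 2, and bars are 95% Poisson intervals. Mme, Fap, Cpe, Cpz and Cpxm1 lie near 0 in blood, while Dpp4 and Enpep extend into the B lineage.

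Anpep (ENSMUSG00000039062) lies on chromosome 7 at 79821803 to 79861059 on the minus strand (GENCODE M21, GRCm38); the annotated transcript Gm44974 overlaps it on the same strand. Its level in P-SSC/fibroblast-like cells was 118 CPM (80.0 to 167) and 158 CPM (143 to 173) in the respective libraries, above both libraries of each other tested class. The class was called higher than 14 of the 16 other classes, where 18.1% of such tests were called higher over all genes. The exceptions were the tenocyte-like and Lepr+ stromal-like classes.

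Tenocyte-like cells held no Anpep UMI among 16 cells of library 1, which allows a share of up to 18.8% of cells with a UMI, and 37.3 CPM (26.1 to 51.6) in library 2. P-SSC/fibroblast-like cells were at least 5.04-fold higher in library 1 and 4.23-fold higher (3.01 to 6.12) in library 2. The fitted difference was 2.42 on the log2 scale (SE 1.02, adjusted p = 0.339) and was not called, whereas it was called with the library as a replicate block (2.83, adjusted p = 0.0249). For Lepr+ stromal-like cells, at 4.94 and 19.1 CPM, the corresponding adjusted p was 0.0528 and, with the block, 0.00216. Smooth muscle-like cells (4 and 20 cells, too few in library 1 to test) held 2 and 4 Anpep UMIs, which gave 84.2 CPM (10.2 to 304) and 31.1 CPM (8.49 to 79.7). An unnamed stromal cluster led by B-cell genes such as Igkc had 7.93 and 97.0 CPM.

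In myeloid cells few Anpep UMIs were counted. Monocyte/macrophage-like cells of library 1 held 0 UMIs in 243 cells, which allows a share of up to 1.23% of cells with a UMI, and those of library 2 held 7 UMIs in 4 of 73 cells (7.94 CPM, 3.19 to 16.4). The class was named from a list of 10 monocyte and macrophage genes, and 10 of 10 were detected in each library at a summed 4201 and 3315 CPM. Since these genes gave the class its name, their level is no independent check of it. Of the 4 cells with Anpep, 3 held 75, 90 and 134 UMIs of C1qa, a complement gene of resident macrophages. The 4 cells held 6472, 20040, 33693 and 46977 UMIs in all, against a class median of 8396 in library 2. The 3 deepest also held 1 Col1a1 UMI each, and none of the 4 held a Dcn UMI. Doublets (barcodes with more than 1 cell) were not controlled in library 2, and their part in these UMIs was not tested. Monocyte/macrophage-like cells with 10 or more C1qa UMIs, a limit set after these cells were seen, numbered 7 in library 1 with 0 Anpep UMIs and 13 in library 2 with 6 Anpep UMIs. The 7 UMIs therefore rest on few cells of 1 library.

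Neutrophil promyelocyte-like, immature and mature neutrophil-like cells held 0 Anpep UMIs in either library. The limits on the share of cells with a captured Anpep UMI, which do not limit the share of cells expressing the gene, were 0.870%, 0.721% and 1.02% in library 1 and 6.12%, 5.56% and 7.69% in library 2. Pro-B-like, resting pre-B-like, mature B-like and T/NK cell-like cells were also at 0, and cycling pre-B-like cells held 1 UMI. That cell also held 5 Col1a1 and 13 Dcn UMIs, both from genes of connective tissue. Monocyte/macrophage-like cells differed from P-SSC/fibroblast-like cells by -5.49 on the log2 scale (SE 1.24, adjusted p = 0.00222; 0.690 with DESeq2), a ratio of 19.8-fold (9.55 to 49.7) in library 2 and at least 125-fold in library 1. Against mature neutrophil-like cells at 0 the adjusted p was 0.389. The blood cells described here are those that passed a sort against CD45, and cells removed by that sort were not analysed here.

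A UMI of Anpep was found in 14 of 20 and 189 of 286 P-SSC/fibroblast-like cells (70.0% and 66.1%; median 12388 and 9223 UMIs per cell). The share was 5.38% and 7.10% in osteoblast-like cells, which had more UMIs per cell (medians 28089 and 16961), and 0% in resting pre-B-like cells (medians 3255 and 3402). When each cell was thinned to 1000 UMIs, the expected shares were 10.7% and 14.9% in P-SSC/fibroblast-like, 0.219% and 0.663% in osteoblast-like and 0.465% in library 2 monocyte/macrophage-like cells. Thinning left out 0 and 2 P-SSC/fibroblast-like cells, 0 osteoblast-like cells and 0 of the library 2 monocyte/macrophage-like cells.

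Dpp4 (ENSMUSG00000035000) lies on chromosome 2 at 62330073 to 62412231, minus strand. It was high in P-SSC/fibroblast-like cells and through the B lineage, and near 0 in bone-forming and cartilage cells. The P-SSC/fibroblast-like level was 205 CPM (154 to 268) and 63.2 CPM (54.1 to 73.4) in libraries 1 and 2, so the libraries did not overlap in their counting intervals. Lepr+ stromal-like cells held 0 UMIs in both libraries, at least 41.5-fold and at least 4.42-fold lower (adjusted p = 6.14e-05). Osteoblast-like cells had 1.57 and 0.677 CPM, and the difference from P-SSC/fibroblast-like cells was -6.14 on the log2 scale (SE 0.777, adjusted p = 6.59e-06). Tenocyte-like cells had 7.79 and 6.21 CPM and were lower as well (adjusted p = 0.00351).

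Among blood cells Dpp4 had its highest CPM in the B lineage. In pro-B-like cells its level was 71.0 CPM (64.7 to 77.7) and 88.1 CPM (77.9 to 99.3). Resting pre-B-like cells had 74.2 and 49.8 CPM, above pro-B-like cells in library 1 and below them in library 2, cycling pre-B-like cells 57.9 and 50.4 CPM, and mature B-like cells 35.9 and 35.5 CPM. T/NK cell-like cells, the class in which the CD26 protein is best known, had 14.8 CPM (9.82 to 21.4) and 16.1 CPM (6.97 to 31.8). In CPM this was below all 4 B-lineage classes in each library. The difference of mature B-like from T/NK cell-like cells was not called (1.10 on the log2 scale, SE 0.637, adjusted p = 0.299). That of cycling pre-B-like cells was not called either (1.75, adjusted p = 0.0584), whereas it was called with the replicate block (1.79, adjusted p = 0.0138). The T/NK cell-like class also held 438 UMIs of the mast cell gene Cpa3, and the part of such cells in its Dpp4 level was not tested. P-SSC/fibroblast-like cells were called higher than T/NK cell-like cells by 2.63 on the log2 scale (SE 0.643, adjusted p = 0.00244), but did not differ detectably from pro-B-like cells (0.23, SE 0.566, adjusted p = 0.781). In that last pair the libraries went opposite ways, with P-SSC/fibroblast-like cells 2.89-fold higher (2.14 to 3.84) in library 1 and at 0.717 of the pro-B-like level (0.589 to 0.872) in library 2. Pro-B-like cells were called higher than 12 of 16 classes, where 14.3% of such tests were called over all genes.

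The shares of cells with a Dpp4 UMI were 60.5% and 48.5% in pro-B-like cells (medians 8466 and 5563 UMIs) and 0.240% and 0% in immature neutrophil-like cells (medians 7937 and 8856 UMIs). After thinning they were 10.2% and 11.2% in pro-B-like, 7.16% and 5.12% in resting pre-B-like, 5.00% and 4.18% in cycling pre-B-like and 3.75% and 3.45% in mature B-like cells; thinning left out 0 and 2 pro-B-like and 8 and 7 resting pre-B-like cells in libraries 1 and 2. The pro-B-like class joined 2 clusters that differed in Dpp4 CPM. Cluster 8, led by Vpreb1, Igll1 and Dntt, had 146 and 155 CPM. Cluster 14, led by Bfsp2 and Nrgn and with Vpreb1, Igll1 and Dntt also among its leading genes, had 57.8 and 53.3 CPM. The ratio was 2.53-fold (2.07 to 3.09) in library 1 against 2.92-fold (2.27 to 3.76) in library 2. Median UMIs per cell were 4476 and 4851 in cluster 8 and 28649 and 15816 in cluster 14. Counted per cell, the order was the reverse. Cluster 8 held 145 Dpp4 UMIs in 193 cells and 162 in 205 cells, and cluster 14 held 328 in 184 and 107 in 102 cells. Mature B-like and pro-B-like cells differed by -1.31 on the log2 scale (adjusted p = 0.158), which was not called, whereas it was called with the replicate block (-1.32, adjusted p = 0.0489).

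Enpep (ENSMUSG00000028024), on chromosome 3 at 129269175 to 129332720, minus strand, encodes the BP-1 antigen long used to stage early B cells in mouse marrow. Its level was 11.7 CPM (9.25 to 14.6) and 23.3 CPM (18.2 to 29.3) in pro-B-like cells and 8.48 and 8.49 CPM in cycling pre-B-like cells. In resting pre-B-like cells it was 4.90 and 4.03 CPM, and mature B-like cells held 0 UMIs in 264 and 209 cells. Pro-B-like cells had at least 4.34 times the mature B-like level in library 1 and at least 5.89 times in library 2 (adjusted p = 0.00450). The fall between cycling pre-B-like and mature B-like cells was called with edgeR (adjusted p = 0.0242) and not with DESeq2 (adjusted p = 0.194).

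Both clusters of the pro-B-like class held Enpep, with 9.09 and 20.1 CPM in cluster 8 and 12.2 and 24.9 CPM in cluster 14. The ratio of cluster 8 to cluster 14 was 0.747 (0.328 to 1.50) in library 1 against 0.809 (0.462 to 1.37) in library 2. Within resting pre-B-like cells, cluster 7 had 10.2 and 6.72 CPM and cluster 0 had 1.47 and 2.37 CPM, which was 6.97-fold (2.82 to 20.6) in library 1 against 2.84-fold (0.721 to 13.2) in library 2. Dpp4 in the same clusters was 67.7 and 39.4 CPM in cluster 7 and 78.4 and 56.3 CPM in cluster 0.

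**Figure D3:**
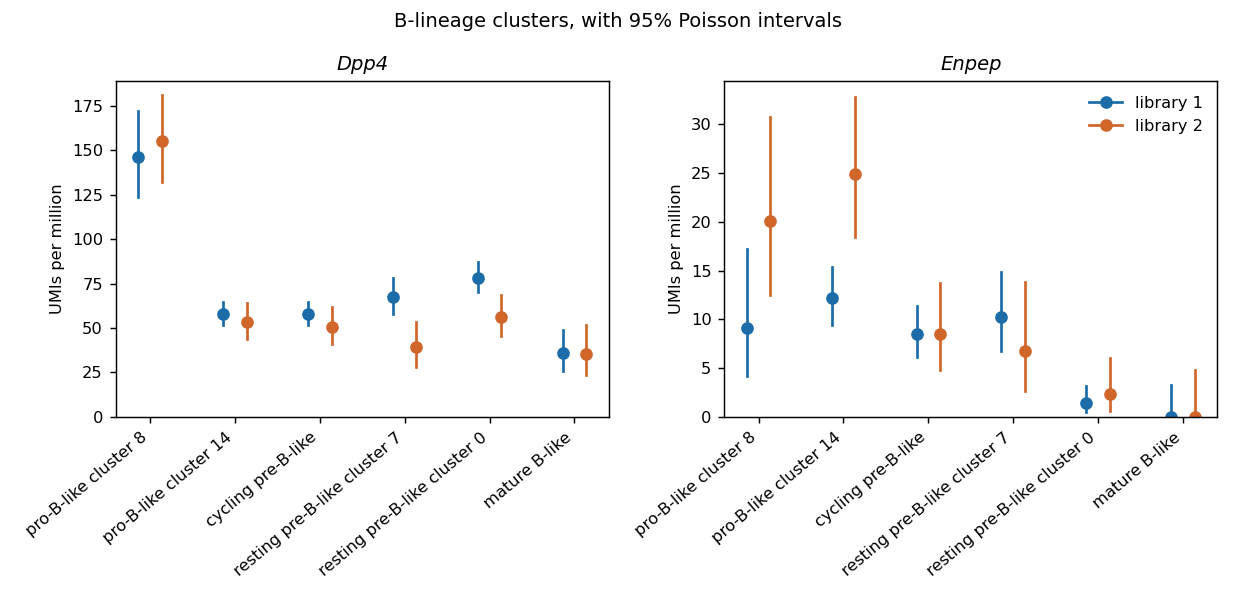
Level of Dpp4 (left) and Enpep (right) in CPM, both axes from 0, in B-lineage clusters ordered from pro-B-like to mature B-like. Dpp4 is highest in pro-B-like cluster 8 (146 and 155 CPM) and remains at about 35 CPM in mature B-like cells, where Enpep is at 0; bars are 95% Poisson intervals.

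In stroma Enpep was highest in smooth muscle-like cells, at 295 CPM (119 to 607) in 4 cells of library 1 and 132 CPM (77.1 to 212) in 20 cells of library 2, from 7 and 17 UMIs. The class expressed 9 of its 9 markers, including Rgs5, Notch3 and Kcnj8 of mural cells, and its ratio to pro-B-like cells was 25.2-fold (9.80 to 54.4) and 5.69-fold (3.14 to 9.76). Lepr+ stromal-like cells had 34.6 CPM in library 1 and 0 UMIs in 38 cells of library 2. P-SSC/fibroblast-like cells had 3.80 and 14.3 CPM, tenocyte-like cells 7.79 and 20.7 CPM, and osteoblast-like and chondrocyte-like cells 0.

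Mme (ENSMUSG00000027820), on chromosome 3 at 63241537 to 63386030, plus strand, had its highest level among tested classes in Lepr+ stromal-like cells in both libraries. The level was 482 CPM (429 to 541) and 248 CPM (185 to 325) in the respective libraries, and the class was called higher than 16 of 16 other classes, where 15.4% of such tests were called over all genes. Among tested classes, osteoblast-like cells followed with 52.3 and 47.4 CPM and P-SSC/fibroblast-like cells with 38.0 and 24.3 CPM. The untested unnamed stromal cluster 6 held 41 Mme UMIs of 309429 in library 1, above the osteoblast-like level. In library 2 it held 38 of 849372, close to that level. Lepr+ stromal-like cells exceeded osteoblast-like cells 9.22-fold (7.49 to 11.4) in library 1 against 5.23-fold (3.73 to 7.24) in library 2 (adjusted p = 0.0321). The log2 difference from P-SSC/fibroblast-like cells was 3.33 (SE 0.639, adjusted p = 0.00257), and it was 3.60 in library 1 alone and 3.36 in library 2 alone. Osteoblast-like and P-SSC/fibroblast-like cells did not differ detectably (1.34, SE 0.609, adjusted p = 0.167). In chondrocyte-like cells Mme was at 0 and 1.39 CPM. By share, Lepr+ stromal-like cells held 57.1% and 15.9% of Mme UMIs and osteoblast-like cells 25.9% and 42.7%. The Lepr+ stromal-like class held 38 cells in library 2 and differed between the libraries, as given above. Its pairs could not be tested without integration or with called doublets removed.

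In blood Mme was close to 0. CD10 marks early lymphoid cells in humans, but the pro-B-like, cycling and resting pre-B-like cells of these mice held 0 Mme UMIs in both libraries, which allows a UMI in up to 0.796% and 0.977% of pro-B-like cells at this depth. Monocyte/macrophage-like, immature and mature neutrophil-like cells also held 0.

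Fap (ENSMUSG00000000392), on chromosome 2 at 62500943 to 62574075, minus strand, is the nearest relative of Dpp4 in sequence and location. The genes are 88712 bases apart with 1 protein-coding gene, Gcg, between them. Fap was shared by fibroblastic, marrow stromal and bone-forming cells, at 228 and 145 CPM in P-SSC/fibroblast-like, 282 and 491 CPM in Lepr+ stromal-like and 224 and 177 CPM in osteoblast-like cells. Untested unnamed stromal clusters also held Fap. Cluster 9, found only in library 2, held 204 Fap UMIs of 841366, above the P-SSC/fibroblast-like and osteoblast-like levels of that library. Cluster 6 held 65 of 309429 in library 1 and 126 of 849372 in library 2. The P-SSC/fibroblast-like to osteoblast-like ratio was 1.02 (0.767 to 1.33) in library 1 against 0.820 (0.718 to 0.936) in library 2. The fitted log2 difference was -0.74 (SE 0.619, adjusted p = 0.512), with TMM scaling, which moved all genes of this pair by 0.60, and it was -0.12 with library sizes only. Tenocyte-like cells, at 7.79 and 66.2 CPM, and chondrocyte-like cells, at 16.5 CPM (9.23 to 27.2) and 28.9 CPM (23.6 to 35.0), were lower than osteoblast-like cells in both libraries; the chondrocyte-like difference was -3.14 (SE 0.673, adjusted p = 0.00151).

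Dpp4 and Fap were thus both present in the sums of P-SSC/fibroblast-like cells and parted in Lepr+ stromal-like and resting pre-B-like cells. Of 286 P-SSC/fibroblast-like cells of library 2, 43 held UMIs of both, 109 of Fap only and 23 of Dpp4 only. Lepr+ stromal-like cells had the highest Fap CPM of the tested classes and no Dpp4 UMI. Their fitted Fap difference from osteoblast-like cells was 0.05 on the log2 scale (SE 0.615, adjusted p = 1). TMM scaling moved all genes of this pair by -0.90. Resting pre-B-like cells, unlike Lepr+ stromal-like cells, had 500 and 136 Dpp4 UMIs and no Fap UMI. Over the 34 sums of 17 classes in both libraries, log2 levels of Dpp4 and Fap had a Pearson r of -0.05. The points share libraries and class composition, so this is a description.

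Cpe (ENSMUSG00000037852), on chromosome 8 at 64592542 to 64693054, minus strand, was broad in mesenchymal cells and had its highest level in an unnamed cluster. The unnamed stromal cluster 3, led by Col10a1 and Mgp, had 2033 CPM (1909 to 2163) and 1365 CPM (1271 to 1465) in the respective libraries, with a UMI in 97.1% and 90.5% of cells. This was 4.84-fold and 3.64-fold the level of chondrocyte-like cells (420 and 375 CPM) and 3.20-fold and 2.76-fold that of osteoblast-like cells (636 and 495 CPM). Among all cells, a cluster of 70 and 74 cells led by Col10a1 and Mgp was named chondrocyte-like (10 of 12 markers). Against stromal cells only, cluster 3 (68 and 74 cells) held 5 of 12 chondrocyte markers and stayed unnamed. Cluster 3 was not among the tested classes, and the tested chondrocyte-like class does not include it. EGFP was found in 39 of the 74 library 2 cells of cluster 3, and without them its Cpe level was 1299.8 CPM (1163 to 1449). Osteoblast-like and chondrocyte-like cells did not differ detectably by the test (0.55, SE 0.572, adjusted p = 0.676), with ratios of 1.51 (1.35 to 1.70) and 1.32 (1.22 to 1.42). Osteoblast-like cells were called higher than 15 of the 16 other tested classes, against 16.9% of such tests over all genes. The unnamed stromal clusters 10 and 9, also untested, had Cpe levels above osteoblast-like cells of the same library. Cluster 10 held 300 Cpe UMIs of 384733 in library 1 and 651 of 1134190 in library 2. Cluster 9, found only in library 2, held 588 of 841366.

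P-SSC/fibroblast-like cells had 106 and 73.9 CPM of Cpe; osteoblast-like cells were higher by 3.28 on the log2 scale (SE 0.634, adjusted p = 0.000466). Smooth muscle-like cells had 463 and 584 CPM, and tenocyte-like cells 164 and 72.5 CPM. The Lepr+ stromal-like class was discordant, at 60.9 CPM (42.9 to 84.0) and 462 CPM (375 to 564) in the respective libraries, and Col1a1 moved the same way between these cells. The part of that difference in the Cpe value was not tested. In named blood classes Cpe did not exceed 3.86 CPM.

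Cpz (ENSMUSG00000036596), on chromosome 5 at 35502218 to 35525698, minus strand, came mostly from osteoblast-like cells. The level was 411 CPM (387 to 437) and 467 CPM (442 to 492), and the class was called higher than 16 of 16 others, against 16.9% of such tests over all genes. Chondrocyte-like cells had 8.80 and 5.56 CPM, a log2 difference of -6.05 from osteoblast-like cells (SE 0.886, adjusted p = 2.44e-05). Lepr+ stromal-like cells held 0 Cpz UMIs in both libraries, at least 83.2-fold and at least 32.6-fold lower. The same class held Cpe and Cpxm1. P-SSC/fibroblast-like cells held 0 UMIs in 20 cells of library 1 and 50.3 CPM (42.3 to 59.5) in library 2. The unnamed cycling stromal cluster 6 had 90.5 and 137 CPM. Osteoblast-like clusters 0 and 11 had 357 and 517 CPM in library 1 and 501 and 409 CPM in library 2, so their order differed between the libraries.

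Cpxm1 (ENSMUSG00000027408), on chromosome 2 at 130390775 to 130397574, minus strand, had its highest CPM in Lepr+ stromal-like cells, at 214 (179 to 254) and 267 (202 to 347). The class was called higher than 14 of 16 others, against 15.4% of such tests over all genes. It was not called higher than P-SSC/fibroblast-like cells (1.37, SE 0.724, adjusted p = 0.374) or tenocyte-like cells (2.10, adjusted p = 0.125), the latter being called with the replicate block (2.22, adjusted p = 0.0234). P-SSC/fibroblast-like cells had 41.8 and 93.3 CPM, tenocyte-like cells 23.4 and 58.0 CPM, osteoblast-like cells 18.1 and 14.9 CPM, and chondrocyte-like cells 5.50 and 9.73 CPM. Lepr+ stromal-like cells exceeded osteoblast-like cells 11.8-fold (8.39 to 16.9) and 17.9-fold (11.9 to 27.3), and the log2 difference was 2.97 (SE 0.763, adjusted p = 0.0134). P-SSC/fibroblast-like cells were 2.31-fold (1.08 to 4.53) and 6.27-fold (4.54 to 8.85) the osteoblast-like level, a difference of 1.60 (SE 0.734, adjusted p = 0.167) that was not called, whereas it was called without TMM scaling (2.12, adjusted p = 0.0378). Neutrophil promyelocyte-like, mature neutrophil-like and monocyte/macrophage-like cells held 0 UMIs.

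Some of the peptidases differed between 2 clusters of P-SSC/fibroblast-like cells. Cluster 1 (16 and 177 cells) was led by Mfap5, Pi16 and Ly6a, genes of fibroblast progenitors, and cluster 8 (4 and 109 cells) by Mfap4, Apod and Eln. Cluster 8 held 11 of the 12 markers of the class, but none of them was among its 10 leading genes. The clusters were formed without these 8 genes. In library 2, Anpep did not differ beyond counting error, at 157 CPM in cluster 1 and 160 CPM in cluster 8 (ratio 0.978, 0.796 to 1.21). In library 1 it was 101 and 194 CPM (ratio 0.523, 0.231 to 1.29), from 22 and 9 UMIs. Dpp4 was 89.8 against 5.80 CPM, 15.5-fold higher in cluster 1 (6.51 to 48.3), and Fap was 172 against 85.8 CPM, 2.01-fold higher (1.55 to 2.62).

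Cpz and Cpxm1 went the other way. In library 2, Cpz was 9.68 CPM in cluster 1 and 138 CPM in cluster 8, 14.3-fold higher in cluster 8, and Cpxm1 was 37.6 and 213 CPM, 5.67-fold higher. Cpe was 63.5 and 96.3 CPM and Mme 21.0 and 31.3 CPM, the Mme ratio being within counting error (0.670, 0.3997 to 1.14). Enpep was 16.7 CPM in cluster 1 and 9.28 CPM in cluster 8, also within counting error (ratio 1.80, 0.808 to 4.52). Library 1, with 4 cells in cluster 8, gave the same direction for Dpp4 (244 and 21.6 CPM), Fap (254 and 108 CPM, ratio 2.35, 0.9497 to 7.53, within counting error), Cpxm1 (13.8 and 172 CPM) and Mme (18.5 and 129 CPM, ratio 0.143, 0.0296 to 0.601). For Cpe it gave the opposite direction, at 119.9 CPM in cluster 1 and 43.1 CPM in cluster 8 (ratio 2.78, 0.696 to 24.2). No Cpz UMI was counted in either cluster of library 1, and Enpep had 1 UMI in cluster 1 and 0 in cluster 8. There is no replicated test of this split, since library 1 held too few cells of cluster 8.

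**Figure D4:**
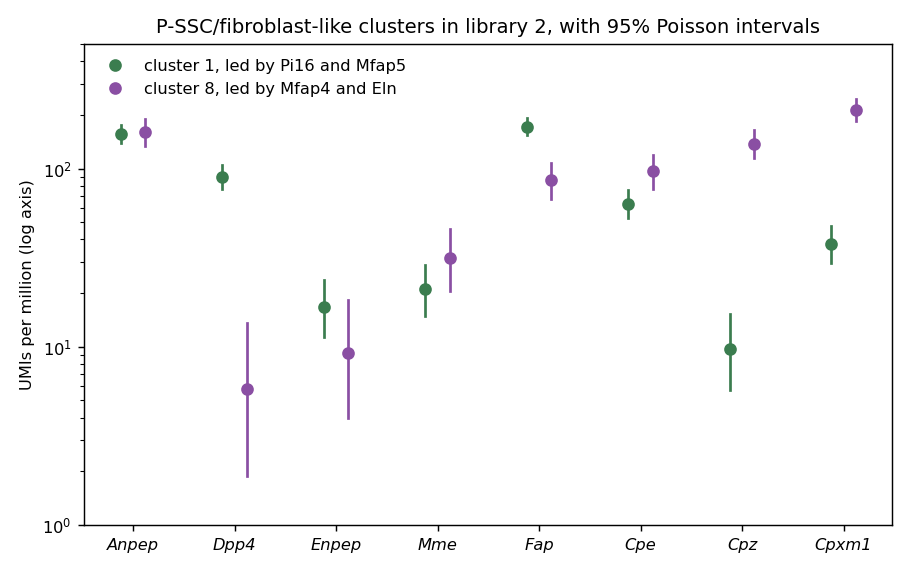
Level of each gene (CPM, logarithmic axis) in P-SSC/fibroblast-like cluster 1 (green, 177 cells) and cluster 8 (purple, 109 cells) of library 2, with 95% Poisson intervals. In this library Anpep is level between the clusters (157 and 160 CPM), Dpp4 and Fap are higher in cluster 1, and Cpz and Cpxm1 are higher in cluster 8.

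In cluster 1 of library 2, 42 cells held UMIs of both Anpep and Dpp4, 74 of Anpep alone, 20 of Dpp4 alone and 41 of neither. Anpep was found in 67.7% of the cells with Dpp4 and in 64.3% of those without; these shares are a description of 1 library. In cluster 8, 1 cell held both, 72 held Anpep alone, 3 held Dpp4 alone and 33 held neither.

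A list of 43 related peptidase genes was compared in the pairs of classes examined for the 8 genes, and 29 passed the filter on low counts. P-SSC/fibroblast-like cells were higher than osteoblast-like cells for 6 and lower for 2 of the 29, against 8.10% and 5.68% of all genes. Ace, which converts angiotensin I, was higher by 3.88 on the log2 scale (SE 0.665, adjusted p = 0.000167), with 293 UMIs against 21, and Ece1, which activates endothelin, by 2.34 (SE 0.499, adjusted p = 0.00187). Cpxm2, a paralog of Cpxm1, Cpd and the aminopeptidase gene Lvrn were also higher, by 5.01, 2.02 and 4.68, with adjusted p of 0.0186, 0.0308 and 0.0177. Phex, a peptidase of phosphate metabolism made by bone cells, differed by -3.30 (adjusted p = 0.00280) and the lysosomal gene Ctsc by -2.31 (adjusted p = 0.0180).

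Ace also separated P-SSC/fibroblast-like from Lepr+ stromal-like cells (4.51, SE 0.821, adjusted p = 0.000920), where 1 of 29 relatives was higher and 2 lower, against 2.85% and 2.64% of all genes. The lower genes were Ctsc (-3.45, adjusted p = 0.00246) and Cpa6, which had 0 UMIs against 8. Between osteoblast-like and chondrocyte-like cells, 4 were higher and 3 lower, against 4.43% and 5.05% of all genes. Phex was higher in osteoblast-like cells by 5.01 (adjusted p = 7.68e-05) and Ctsc by 7.29 (adjusted p = 1.44e-05), while Cpa6 differed by -4.46 (adjusted p = 0.00116) and Cpm by -3.10 (adjusted p = 0.0307). The 9 blood genes summed to 6671 and 201 CPM in osteoblast-like and 1092 and 144 CPM in chondrocyte-like cells. They summed to 12498 and 324 CPM in Lepr+ stromal-like cells, below P-SSC/fibroblast-like cells at 16335 and 2931 CPM. The part of blood RNA in the Ctsc values was not tested. Between cycling pre-B-like and mature B-like cells 1 relative, Prep, was higher (2.20, adjusted p = 0.00193) and 5 were lower, against 6.14% and 4.47% of all genes; Scpep1 differed by -3.97 and Dpp7 by -3.15.

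Other peptidases were counted in the monocyte/macrophage-like class. Monocyte/macrophage-like cells were higher than mature neutrophil-like cells for 10 of 29 relatives and lower for 2, against 20.0% and 6.94% of all genes. These included Ctsc (3.82, adjusted p = 0.000153), Pepd (5.44, adjusted p = 2.89e-05), Scpep1 (4.64, adjusted p = 0.000184), Ctsa (2.84, adjusted p = 3.79e-05) and Ace (4.23, adjusted p = 0.00711), as well as Prcp (3.27), Aopep (3.29) and Xpnpep1 (2.73), while Cpq and Ece1 had 74 and 63 UMIs against 0. Cpa3 differed by -4.53 (adjusted p = 0.0342) and Cpd differed by -2.85 (adjusted p = 0.00203). Against P-SSC/fibroblast-like cells, monocyte/macrophage-like cells were higher for 4 and lower for 8, against 16.8% and 16.8% of all genes, with Ctsc at 5.70 and Rnpep at 3.15 and with Cpq at -3.23, Ece1 at -2.64, Cpd at -2.34 and Phex at -4.85. Aebp1, Cpxm2 and Lvrn had 1104, 87 and 20 UMIs in P-SSC/fibroblast-like cells and 0 in monocyte/macrophage-like cells. P-SSC/fibroblast-like cells exceeded T/NK cell-like cells for 11 and fell below them for 3, against 15.4% and 17.7% of all genes. The higher genes included Ece1 (3.08, adjusted p = 0.000126), Cpq (2.97, adjusted p = 0.000528), Cpd (2.56, adjusted p = 0.00462), Dpp7 (2.08, adjusted p = 0.0193) and Lvrn (3.89, adjusted p = 0.0353). Ace, Cpxm2 and Phex had 293, 87 and 40 UMIs in P-SSC/fibroblast-like cells and 0 in T/NK cell-like cells, and Aebp1 had 1104 against 1. Of the lower genes, Ctsc differed by -2.06 (adjusted p = 0.0201), and Cpa3 had 0 UMIs against 438.

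Over the 34 sums of 17 classes, the genes whose log2(CPM + 10) ran most closely with each member were recorded as a description. For Anpep they were Nox4 (r = 0.96), Slc16a9 (0.95) and Mfap5 (0.95), and for Dpp4 Ablim1 (0.89), Akap12 (0.82) and Hdac7 (0.81). Enpep had the loosest partners, Dlg3 (0.77), Epb41l4b (0.75) and Zbed3 (0.75). Mme ran with Cdh11 (0.98), Sall2 (0.97) and Ackr4 (0.97), Fap with Mmp23 (0.98), Mrc2 (0.97) and Ddr2 (0.97), and Cpe with P3h4 (0.97), Fkbp10 (0.97) and Bfsp1 (0.97). Cpz ran with Kcnk1 (0.94), Lgals2 (0.94) and Col24a1 (0.93), and Cpxm1 with Zfhx4 (0.97), Tgfb1i1 (0.96) and Fbln1 (0.96). Among the members, Mme, Fap and Cpxm1 had mutual r of 0.91 (Mme and Fap), 0.89 (Mme and Cpxm1) and 0.90 (Fap and Cpxm1), while Dpp4 had r between -0.23 and 0.43 with the others.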

How the data were processed

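Both libraries were made with 10x Genomics 3′ chemistry. The authors deposited UMI counts per gene and barcode with no further normalization; per the submitters' processing notes, Cell Ranger 6.1.2 and the mm10 genome were used. Barcodes with at least 500 genes, at least 500 UMIs and at most 10% mitochondrial UMIs were kept (6276 and 2893 cells). Libraries were integrated by CCA in Seurat 5.3.0 (R 4.3.3; 3000 variable genes without the 8 members and their relatives, 30 anchor dimensions, 15 principal components, resolution 0.8). A cluster took the name of a marker list when at least 3 markers and 50% of the list were higher than in the other cells by log2 1 and detected in at least 20% of its cells. It stayed unnamed where another list had over 1 more gene than its own list among its 10 leading genes, or where it held none of its own there and its UMI depth was low. Cells of clusters whose best list was not a blood list were integrated and clustered again at the same settings. Stromal classes, also the unnamed ones, come from that second round. The scoring of names was set after the clusters were seen. The members and lists were chosen with earlier results of these data known.

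Scrublet (scanpy 1.11.5) called 124 doublets (1.98%) in library 1 and 1 (0.0346%) in library 2, where it did not work; no doublets were removed in the main analysis. Counts were summed per class and library and tested with edgeR 4.0.16 (quasi-likelihood, TMM, low counts filtered, 17 classes with at least 10 cells per library), adjusted within each pair of classes. DESeq2 1.42.0 was an alternative. Because of TMM scaling, fitted log2 differences depart from the CPM ratios. The shift was 0.60 for osteoblast-like against P-SSC/fibroblast-like cells and -0.90 for Lepr+ stromal-like against osteoblast-like cells. It was largest in erythroblast-like pairs, at 2.46 against Lepr+ stromal-like and 2.37 against tenocyte-like cells. Dpp4 was therefore called lower in tenocyte-like than in erythroblast-like cells (-2.17, adjusted p = 0.0432). Its CPM was higher there in both libraries, at 7.79 and 6.21 against 7.24 and 0. With 2 libraries, p-values measure only the spread between these samples, which may be technical. Class sums of 1 library come from 1 cell suspension, and their deviations from the class means correlated (median r 0.25, above 0.1 in 130 of 136 class pairs), so the replicate number pairs them. The library as a replicate block is given where it changes a call of the 8 genes. In simulated counts with 200 of 13812 genes changed between the P-SSC/fibroblast-like and osteoblast-like sums, 86.6% of log2 4 changes and 14.6% of log2 2 changes were found, and 1.56% of calls were false. Named genes were the 8 members, relatives past the threshold with a log2 difference of at least 2, and the 3 genes most correlated with each member. Thinned shares are expected shares at 1000 UMIs per cell.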

Additional observations from a re-analysis of the deposited data

Results flagged for a closer look

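Barcodes removed by the filters (3656 in library 1 and 766 in library 2) also held UMIs of these genes, outside the cells compared. In library 1 they held 28 Dpp4, 6 Enpep, 39 Mme, 65 Fap, 179 Cpe, 55 Cpz and 24 Cpxm1 UMIs. In library 2 they held 6 Anpep, 7 Dpp4, 14 Mme, 55 Fap, 168 Cpe, 55 Cpz and 15 Cpxm1 UMIs. Each value exceeds the 3 counts that a count of 0 allows.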

How the results depend on the processing

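With DESeq2, the Anpep difference between monocyte/macrophage-like and P-SSC/fibroblast-like cells was -5.35 (adjusted p = 0.690) and the Enpep difference between cycling pre-B-like and mature B-like cells 5.44 (adjusted p = 0.194), both no longer called; the cause was not tested. Without TMM scaling the Cpxm1 difference between P-SSC/fibroblast-like and osteoblast-like cells was 2.12 and was called. Calls of the 8 genes numbered 305 over 91 pairs without integration and 320 over 105 pairs with called doublets removed, where fewer classes could be tested, and 396 with DESeq2. With the replicate block they numbered 520 against 489, and 37 of 1088 single calls changed. For the 8 genes, the block changed no other call named in the text. Calls of the related genes were not compared under the block. Leaving out the Lepr+ stromal-like class, chosen after seeing the data, gave 407 calls of the 8 genes. The share of all genes called was computed only for the main fit. The counts under the other settings therefore cannot be set against such a share. In single libraries (log2 ratios with no test) Anpep ranged from -9.58 to -4.21 against P-SSC/fibroblast-like and from -1.17 to 1.49 against mature neutrophil-like cells, Dpp4 from 4.73 to 7.97 against Lepr+ stromal-like and from 1.89 to 3.78 against T/NK cell-like, Enpep from 3.73 to 4.25, Mme from 3.36 to 3.60, Fap from -0.286 to 0.0372, Cpe from 0.40 to 0.60, Cpz from -6.36 to -5.46 and Cpxm1 from 1.26 to 2.64. Lepr+ stromal-like pairs gave no value without integration or with doublets removed, nor did the T/NK cell-like pair without integration or the mature neutrophil-like pair at resolution 0.4. The small number of kept cells limits statements on Anpep in library 2 neutrophils.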
